A study of Patiria miniata with 18 samples.

Results

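Wnt5, Wnt7, Wnt8 and Wnt16 are 4 genes for secreted Wnt ligands of the bat star Patiria miniata, and their transcript levels were followed in larvae that were regenerating after being cut through the foregut. The members were taken by their locus identifiers, XLOC_009399 (Wnt5), XLOC_033394 (Wnt7), XLOC_028135 (Wnt8) and XLOC_054546 (Wnt16), which are 4 of the 80165 loci counted and 4 of the 18 loci whose name begins with Wnt. RNA was sequenced from pools of about 300 sibling larvae or larval fragments, cut by hand at 7 days post fertilization midway between the anterior and posterior ends. There were 18 libraries in 9 groups of 2 biological replicates: anterior fragments, posterior fragments and uncut control larvae, each at about 3 hours (3 hpb, labelled 0 dpb), 3 days (3 dpb) and 6 days (6 dpb) post bisection. No transgene, drug or mutant entered any group, the larvae came from adults collected at sea and were fed the same alga, and the uncut controls were siblings kept for the same time. The value of a group is that of pooled whole larvae or fragments, not of a tissue.

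Wnt proteins are lipid-modified signals that cells release to their neighbours. They bind Frizzled receptors together with a co-receptor such as Lrp6, and in the best known branch of the pathway this stops the destruction of beta-catenin, which then enters the nucleus and switches on genes with Tcf and Lef factors. In embryos of sea stars, sea urchins and many other animals Wnt genes are transcribed towards the posterior end and help to set up the anterior-posterior axis. Wnt8 acts in the beta-catenin branch in sea urchin and vertebrate embryos, Wnt5 is best known in vertebrates for signals that do not need beta-catenin and steer cell movement, Wnt7 genes pattern the limb and nervous system of vertebrates, and Wnt16 is known in zebrafish for its part in forming blood stem cells.

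On the scaffolds of the P. miniata v1.0 assembly, Wnt5 lay on scaffold 1261 from 79720 to 94852 on the minus strand, in 3 exon blocks that hold 2981 bases. Wnt7 lay on scaffold 2400 from 5435 to 22656 on the plus strand, in 5 exon blocks of 4757 bases. Wnt8 lay on scaffold 2028 from 32202 to 37412 on the plus strand, in 6 exon blocks of 1983 bases. Wnt16 lay on scaffold 5048 from 16345 to 28643 on the minus strand, in 4 exon blocks of 2108 bases. None of the 4 overlapped another locus, so reads of an antisense neighbour could not enter their counts, although whether the counting used strand is not given in the sources used here. Each member shares its name with 1 other locus on another scaffold, and whether such a pair is 2 genes or 2 pieces of 1 gene was not tested. The hybridization probe that the study designed on the Wnt7 locus carries the name wnt2, so the name of that locus is less certain than its identifier.

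One sequence of a member is shown because it holds the part of the gene that makes its product recognisable as a Wnt. It is the study's 100-base probe on Wnt16, the member with the widest range of levels, written 5′ to 3′. The capitals mark 24 bases, positions 60 to 83 counted from 1 at the 5′ end, that encode the conserved cysteine-rich stretch around the serine to which the lipid is attached in Wnt proteins.
Wnt16: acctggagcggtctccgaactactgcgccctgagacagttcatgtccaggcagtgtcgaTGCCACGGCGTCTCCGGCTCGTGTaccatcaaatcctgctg

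Libraries held 15868104 to 36152675 counts on loci. Levels are given in CPM, the usual measure of a locus's share of the counts of its library, scaled with edgeR's TMM factors, which lay between 0.673 and 1.23. Fold changes, standard errors (SE) and p-values come from 1 edgeR quasi-likelihood fit of all 18 libraries to the 31798 loci that exceeded 3 CPM in at least 2 libraries, with the replicate number as a block, and p was adjusted over all tested loci by the Benjamini-Hochberg method. A locus was called when its edgeR adjusted p was under 0.05. All 4 members passed the filter. With scaling by library size alone the log2 fold change against controls at 3 hpb had a median over all loci of -0.44 for anterior and -0.41 for posterior fragments, in place of -0.01 and -0.03, so changes at 3 hpb are relative to the other loci. The labels of the fragments matched their markers. The paper names several of these markers from the same samples, so the match is no independent check of the labels. The summed level of 3 anterior ectoderm genes (Frizz5/8, Nkx2.1 and Rx) was 701.5 and 971.1 CPM in the anterior fragments at 3 hpb and 32.8 and 47.8 CPM in the posterior fragments. For 14 posterior marker loci the sums were 99.4 and 106.6 CPM in the anterior and 584.5 and 587.8 CPM in the posterior fragments. Between anterior and posterior fragments at 3 hpb, 4 of 6 midgut and hindgut loci and 1 of 6 coelom loci were called lower, and 1 of 5 ciliary band loci was called higher. Of all tested loci 4.41% were called lower and 0.884% higher in that comparison, and a single call in so short a list says little of a tissue.

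Wnt16, Wnt5 and Wnt7 were lower in anterior than in posterior fragments and Wnt8 was not called different between them, so the members differed in how unevenly they were divided between the ends of the larva. Wnt16 had the steepest division, with 36.8-fold less transcript in anterior than in posterior fragments at 3 hpb, 47.7-fold less at 3 dpb and 33.3-fold less at 6 dpb. Wnt5 was 6.54-fold, 4.90-fold and 5.77-fold lower at these times, and Wnt7 2.75-fold and 2.59-fold lower at 3 hpb and 3 dpb. Of the 4 members, 3 were called lower in anterior fragments at 3 hpb, 3 at 3 dpb and 2 at 6 dpb, while 4.41%, 2.92% and 2.73% of all tested loci were called lower at these times. The paper had already placed Wnt5, Wnt7 and Wnt16 among its posterior genes from these same libraries, so the counts are no independent result.

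**Figure D1:**
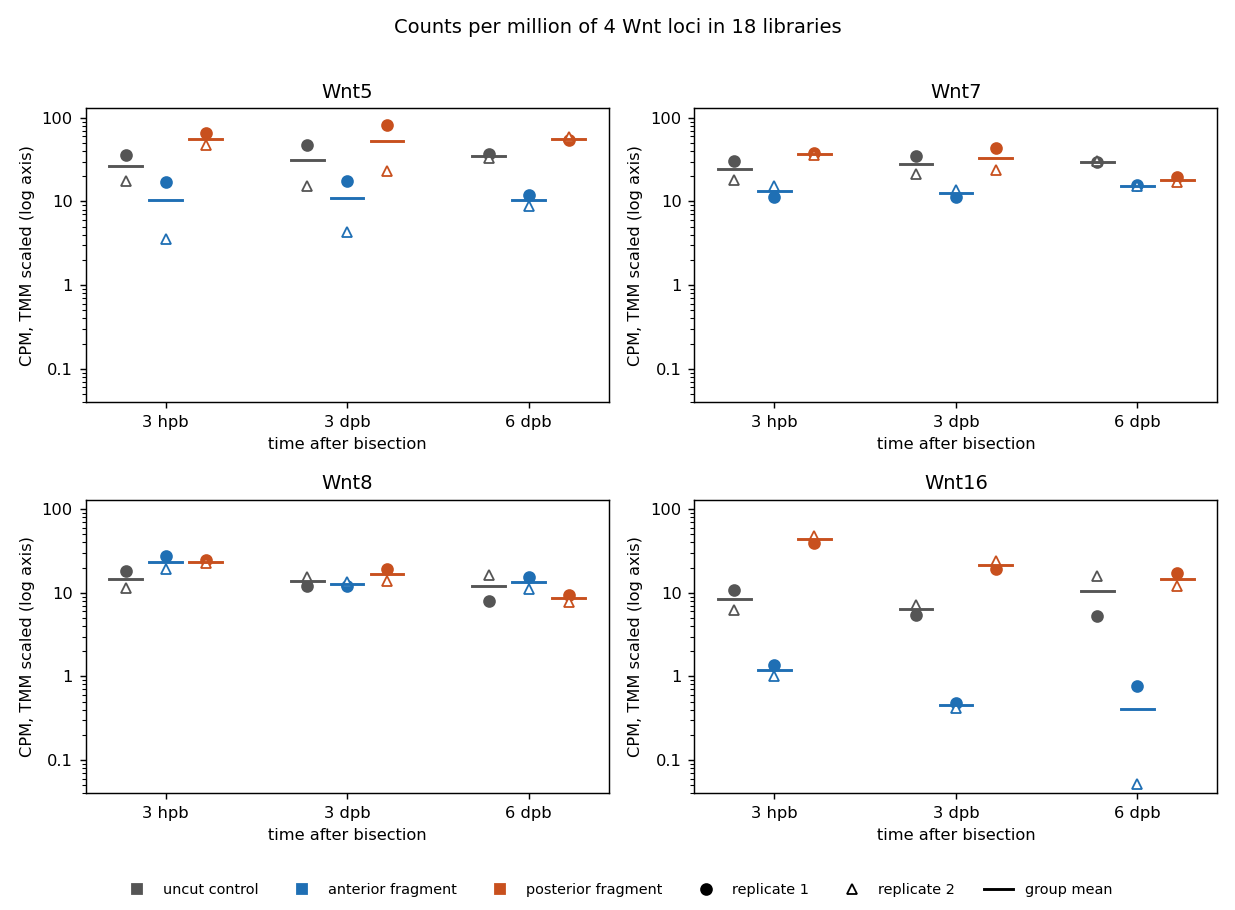
CPM of each member in all 18 libraries, on a log axis, by time after bisection. Circles are replicate 1, triangles replicate 2 and lines group means. Both libraries of anterior fragments lie below both uncut controls at every time for Wnt16, from 0.0512 to 1.37 CPM against 5.27 to 15.7 CPM, whereas the groups of Wnt8 run into each other.

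Wnt16 was the lowest of the 4 members in CPM in anterior fragments. In uncut controls it had 10.8 and 6.29 CPM at 3 hpb, 5.49 and 7.20 at 3 dpb, then 5.27 and 15.7 at 6 dpb in replicates 1 and 2. In anterior fragments the values were 1.37 and 1.00 CPM at 3 hpb, 0.483 and 0.416 at 3 dpb, then 0.774 and 0.0512 at 6 dpb. No anterior library reached the lowest control of any time. The reads behind the anterior values were few, 21 and 13 counts at 3 hpb, 10 and 8 at 3 dpb, then 22 and 1 at 6 dpb, so that a transcript was found in every anterior library but its level there is known only coarsely.

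Against uncut controls Wnt16 was lower in anterior fragments at all 3 times and in the main fit was the 1 member called at each of them. In that fit 4.76% of tested loci were called lower at 3 hpb, 2.24% at 3 dpb and 2.15% at 6 dpb. With a separate replicate block for each time, Wnt16 and Wnt5 were both called lower at each time, as were 14.5%, 3.61% and 3.36% of all loci. The log2 fold change was -2.83 (SE 0.72, adjusted p = 0.0376) at 3 hpb, -3.81 (SE 0.77, adjusted p = 0.0202) at 3 dpb and -4.58 (SE 0.78, adjusted p = 0.00623) at 6 dpb. In bulk samples fewer cells of a type and less RNA per cell cannot be told apart, and the cut itself removes the posterior fragment from these pools. Relative to the uncut sibling library of the same replicate number, Wnt16 stood at 12.7% and 15.9% at 3 hpb, at 8.80% and 5.78% at 3 dpb, and at 14.7% in replicate 1 at 6 dpb, where replicate 2 had the 1 count. The change of its difference from controls between 3 hpb and 6 dpb was not called (-1.75, SE 1.02, adjusted p = 0.615), in a test that called 0.0189% of loci lower. The call at 3 hpb was lost without either library of the controls or anterior fragments of that time or without any library of 3 dpb, with log2 fold changes from -3.18 to -2.39 and an adjusted p of up to 0.165, and the call at 3 dpb was lost without any of the 4 libraries compared (-4.07 to -3.52, adjusted p up to 0.244). The call at 3 hpb was also lost with no filter on low counts (adjusted p = 0.0561) and with no replicate block (adjusted p = 0.102), and the call at 6 dpb was lost with 1 fit per time point (-4.45, adjusted p = 0.103).

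Posterior fragments held the highest Wnt16 levels of all groups at 3 hpb and 3 dpb. Replicates 1 and 2 held 39.2 and 48.0 CPM at 3 hpb, 19.5 and 23.9 CPM at 3 dpb, then 17.4 and 12.1 CPM at 6 dpb. Relative to the uncut sibling library of the same replicate number and time these were 363% and 764% at 3 hpb, 354% and 331% at 3 dpb, then 330% and 76.9% at 6 dpb. The 2 groups did not overlap at 3 hpb and 3 dpb and overlapped at 6 dpb, where replicate 2 of the controls was high. The log2 fold change was 2.37 (SE 0.66, adjusted p = 0.235) at 3 hpb, 1.77 (SE 0.65, adjusted p = 1.0) at 3 dpb and 0.48 (SE 0.64, adjusted p = 1.0) at 6 dpb, so none was called, in comparisons where 0.0252%, 0% and 0% of all loci were called higher. Over the 4 members edgeR called 0 in posterior fragments at each time. DESeq2's Wald test called 1, 0 and 0 of them, where it called 591, 97 and 657 of the 31798 tested loci in either direction. Without adjustment (unadjusted p under 0.05 and over 2-fold higher) 1, 1 and 0 passed, a rule that 3.47%, 0.78% and 2.02% of all loci met. When the replicate block was nested in time, so that replicates could differ by another amount at each time, Wnt16 at 3 hpb had a value of 2.40 with an adjusted p of 0.0389 and was called, as 2.43% of loci were higher under this block. From 3 hpb to 6 dpb the posterior value moved by -1.58 (SE 0.64), with an adjusted p of 0.135, and of 0.0404 under the nested block, where 18.2% of loci were called lower.

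Wnt5 had less transcript in anterior fragments than in uncut siblings in every replicate, although in the main edgeR fit the difference was not called. In uncut controls it had 35.8 and 17.7 CPM at 3 hpb, 47.4 and 15.5 at 3 dpb, then 36.8 and 32.9 at 6 dpb. In anterior fragments it had 17.2 and 3.53 CPM at 3 hpb, 17.4 and 4.37 at 3 dpb, then 12.1 and 8.92 at 6 dpb. Replicate 1 was above replicate 2 in each of these groups, and within a replicate number the anterior library was always the lower, at 48.0% and 20.0% of its uncut sibling at 3 hpb, 36.8% and 28.2% at 3 dpb, then 32.8% and 27.1% at 6 dpb.

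The anterior log2 fold changes of Wnt5 against controls were -1.55 (SE 0.56, adjusted p = 0.115) at 3 hpb, -1.58 (SE 0.55, adjusted p = 0.376) at 3 dpb and -1.78 (SE 0.56, adjusted p = 0.237) at 6 dpb, none of which was called. Under the replicate block nested in time the same changes had adjusted p-values of 0.00781, 0.0158 and 0.00966 and all were called, where 14.5%, 3.61% and 3.36% of all loci were called lower. Without adjustment (unadjusted p under 0.05 and over 2-fold lower) 2, 3 and 2 members passed at the 3 times, against 10.1%, 4.26% and 4.12% of all loci. The calls of Wnt5 thus depended on how the difference between replicates was modelled, and also on the test and the scaling. With 1 replicate block for all times, DESeq2's Wald test called Wnt5 lower at 3 hpb (adjusted p = 0.0473) and 6 dpb (adjusted p = 0.0440). It called 4394 and 1037 of the 31798 tested loci in either direction at these times. With scaling by library size alone, edgeR called Wnt5 lower at 3 hpb (adjusted p = 0.0473), where 3862 loci were called in either direction. In log2 CPM replicate 1 exceeded replicate 2 of Wnt5 by up to 2.25 and was higher in 8 of 9 groups, while the same difference of Wnt7 ran from -0.40 to 0.87.

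In posterior fragments Wnt5 had 65.1 and 47.0 CPM at 3 hpb, then 82.7 and 23.1 CPM at 3 dpb, and finally 54.5 and 58.4 CPM at 6 dpb. Each library was above its uncut sibling, at 148% to 266% of it. The log2 fold changes against controls, 1.16 (SE 0.54, adjusted p = 0.464), 0.71 (SE 0.54, adjusted p = 1.0) and 0.75 (SE 0.54, adjusted p = 0.847), were not called. Between the fragments Wnt5 was lower in the anterior at each time, by -2.71 (SE 0.58, adjusted p = 0.0157), -2.29 (SE 0.56, adjusted p = 0.0477) and -2.53 (SE 0.57, adjusted p = 0.0277) in log2. The call at 3 dpb is close to the threshold and was lost without any 1 of 12 libraries, with values from -2.92 to -1.78 and an adjusted p of up to 0.459, while those at 3 hpb and 6 dpb were lost without replicate 2 of posterior fragments of that time (-2.36 and -1.74), replicate 2 of anterior fragments (-2.15 and -2.93) or, at 6 dpb, replicate 1 of anterior fragments (-2.22).

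Wnt7 was less unevenly divided than Wnt16, and at 6 dpb its anterior and posterior levels lay close together. Uncut controls held 30.3 and 18.1 CPM at 3 hpb, 35.4 and 21.4 at 3 dpb, then 29.3 and 30.1 at 6 dpb. Anterior fragments held 11.5 and 15.1, 11.2 and 13.8, and 15.6 and 15.1 CPM at these times, below every control library. Posterior fragments held 38.1 and 36.0, 43.1 and 23.6, and 19.4 and 16.9 CPM. At 6 dpb both posterior libraries were therefore below both controls, and still above both anterior libraries.

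Against controls, the log2 fold changes of Wnt7 in anterior fragments were -0.83 (SE 0.34, adjusted p = 0.157), -1.14 (SE 0.34, adjusted p = 0.181) and -0.96 (SE 0.33, adjusted p = 0.385), and none was called. In posterior fragments they were 0.64 (SE 0.33), 0.23 (SE 0.33) and -0.72 (SE 0.33), with adjusted p-values of 0.510, 1.0 and 0.556. Between the fragments Wnt7 was called lower in the anterior at 3 hpb (-1.46, SE 0.34, adjusted p = 0.0256) and 3 dpb (-1.37, SE 0.34, adjusted p = 0.0485), whereas at 6 dpb the difference was -0.24 (SE 0.33, adjusted p = 0.930). The posterior level went from a mean of 37.0 CPM at 3 hpb to 18.2 CPM at 6 dpb, a log2 change of -1.03 (SE 0.33). Its edgeR adjusted p was 0.0747, and 0.0233 under the nested block, where 18.2% of all loci were called lower. Relative to controls this change was -1.35 (SE 0.47, unadjusted p = 0.0143, adjusted p = 0.348), in a test that called 0% of loci lower. The 3 hpb call between fragments was lost without replicate 1 of the anterior (-1.14) or either posterior replicate (-1.54 and -1.38), and the 3 dpb call without any 1 of 12 libraries (-1.71 to -0.97, adjusted p up to 0.546).

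**Figure D2:**
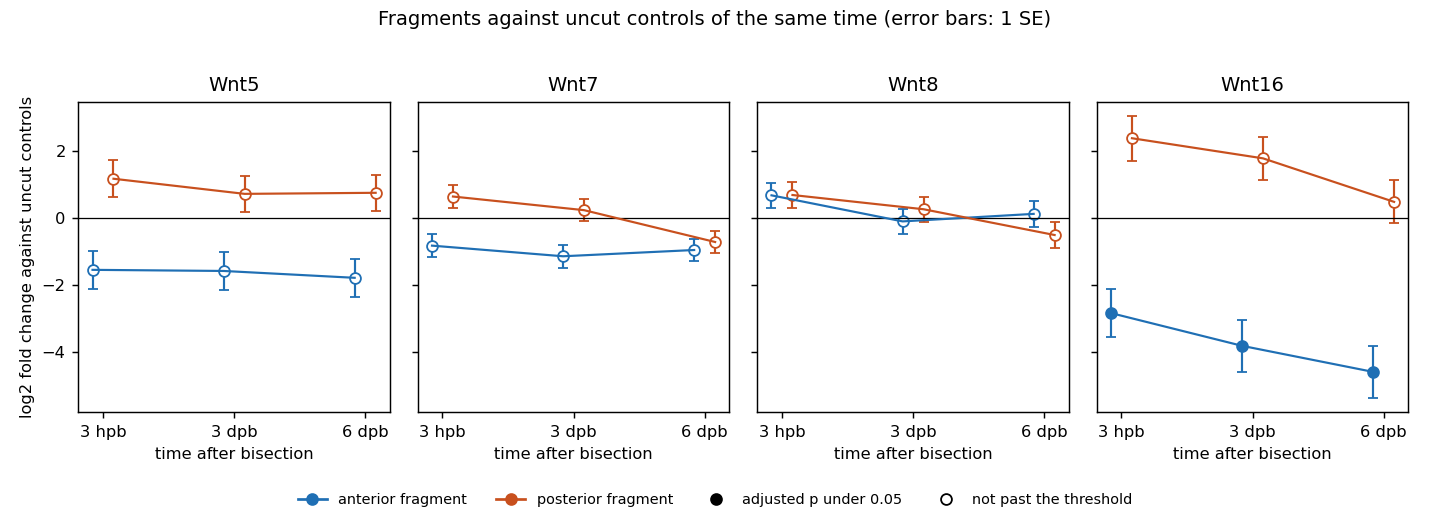
Log2 fold change of each member in each kind of fragment against the uncut controls of that time, with bars of 1 SE. Filled points have an edgeR adjusted p under 0.05, which Wnt16 in anterior fragments reached at 3 hpb (-2.83), 3 dpb (-3.81) and 6 dpb (-4.58).

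Wnt8 was present in both fragments, was not called different between them, and fell in posterior fragments between 3 hpb and 6 dpb. Uncut controls had 18.2 and 11.3 CPM at 3 hpb, 12.02 and 15.56 at 3 dpb, then 7.96 and 16.3 at 6 dpb. Anterior fragments had 27.6 and 19.2, 12.1 and 13.6, and 15.4 and 11.2 CPM at these times. Posterior fragments had 24.4 and 22.5, 19.3 and 14.0, and 9.39 and 7.81 CPM. At 3 hpb every fragment library, anterior or posterior, was above both uncut controls in TMM-scaled CPM. That order rests on the scaling. Replicate 2 of anterior fragments held 250 Wnt8 reads among 19601838 counts, and replicate 1 of the controls 291 among 15868104. By 6 dpb both fragments overlapped the controls.

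Between the fragments the log2 difference of Wnt8 was -0.01 (SE 0.37) at 3 hpb, -0.36 (SE 0.38) at 3 dpb and 0.63 (SE 0.38) at 6 dpb, with adjusted p-values of 0.996, 1.0 and 0.562. Against controls the anterior value at 3 hpb was 0.67 (SE 0.38, adjusted p = 0.300) and the posterior value 0.68 (SE 0.38, adjusted p = 0.535), estimates that share the same control libraries. Over the other ways of processing the lowest values at 3 hpb were 0.28 and 0.33. The values against controls at 3 dpb and 6 dpb lay between -0.51 and 0.26, and apart from the posterior value at 3 dpb (0.26) they changed sign when single libraries were left out. The decline in posterior fragments from 3 hpb to 6 dpb was the 1 change over time called among the members, with a log2 fold change of -1.45 (SE 0.38, adjusted p = 0.0425), or 2.73-fold, in a comparison where 4.63% of all tested loci were called lower. It was -0.91 with scaling by library size alone, no longer called, a scaling that moves the median of all loci in this comparison to 0.59, and its call was also lost without any 1 of 12 libraries (-1.53 to -1.36). In anterior fragments the same change was -0.81 (SE 0.38, adjusted p = 0.210) and in uncut controls -0.26 (SE 0.38, adjusted p = 0.941). Relative to controls the posterior change was -1.19 (SE 0.54, unadjusted p = 0.0468, adjusted p = 0.443), so it was not shown to differ from that of uncut larvae.

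In uncut larvae no member was called over the 6 days of the time course. None of the 4 passed edgeR's test between 3 hpb and 6 dpb in controls, where 0.0503% of tested loci were called higher and 0.0818% lower, and the log2 changes ran from -0.26 for Wnt8 to 0.53 for Wnt5. There was also none with DESeq2 or when p was left unadjusted. In anterior fragments the changes from 3 hpb to 6 dpb were 0.29 for Wnt5, 0.19 for Wnt7, -0.81 for Wnt8 and -1.43 for Wnt16, none of them called where 2.43% of loci were called lower.

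Per length, the order of the members differed between the fragments. On the scale of RPKM, which is CPM divided by the exon length in kilobases, the mean of Wnt5 in uncut controls at 6 dpb was 11.7 ± 0.913 (SD, n = 2). It was the highest mean of all 18 Wnt loci, but its namesake XLOC_027835, at 10.6 ± 7.91, did not differ from it beyond the spread. Among the members Wnt7 at 6.25 ± 0.127, Wnt8 at 6.11 ± 2.97 and Wnt16 at 4.97 ± 3.49 followed, and these 3 did not differ beyond their spread. In anterior fragments at 3 hpb Wnt8 led the members at 11.8 ± 3.00 RPKM, and Wnt16 at 0.561 ± 0.124 RPKM ranked 15 of 18. In posterior fragments at 3 hpb Wnt16 was at 20.7 ± 2.97 RPKM and ranked 4, close to Wnt5 at 18.8 ± 4.30 RPKM. By 6 dpb the posterior value of Wnt16 was 6.99 ± 1.80 RPKM, that of Wnt8 4.34 ± 0.564 and that of Wnt7 3.82 ± 0.363, while Wnt5 remained at 18.9 ± 0.921 RPKM and ranked 1.

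Over the 9 groups ordered by mean CPM, Wnt16 in posterior fragments stood apart at 3 hpb (43.6 CPM) and then at 3 dpb (21.7 CPM), the posterior fragments at 6 dpb ran into the controls, and below a gap came the anterior fragments at 3 hpb (1.18 CPM) and, apart from those, at 3 dpb and 6 dpb (0.450 and 0.412 CPM). For Wnt5 all posterior and control groups ran into their neighbours in the order of means, and the gap lay between the lowest control mean (26.7 CPM at 3 hpb) and the highest anterior mean (10.9 CPM at 3 dpb), although at 3 dpb the anterior libraries, up to 17.4 CPM, overlapped the controls of that time, down to 15.5 CPM. For Wnt7 the gap lay between posterior fragments at 6 dpb (18.2 CPM) and anterior fragments at 6 dpb (15.3 CPM). For Wnt8 no group was separated from its neighbour in the order, from 23.4 CPM in posterior fragments at 3 hpb down to 8.60 CPM in posterior fragments at 6 dpb.

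**Figure D3:**
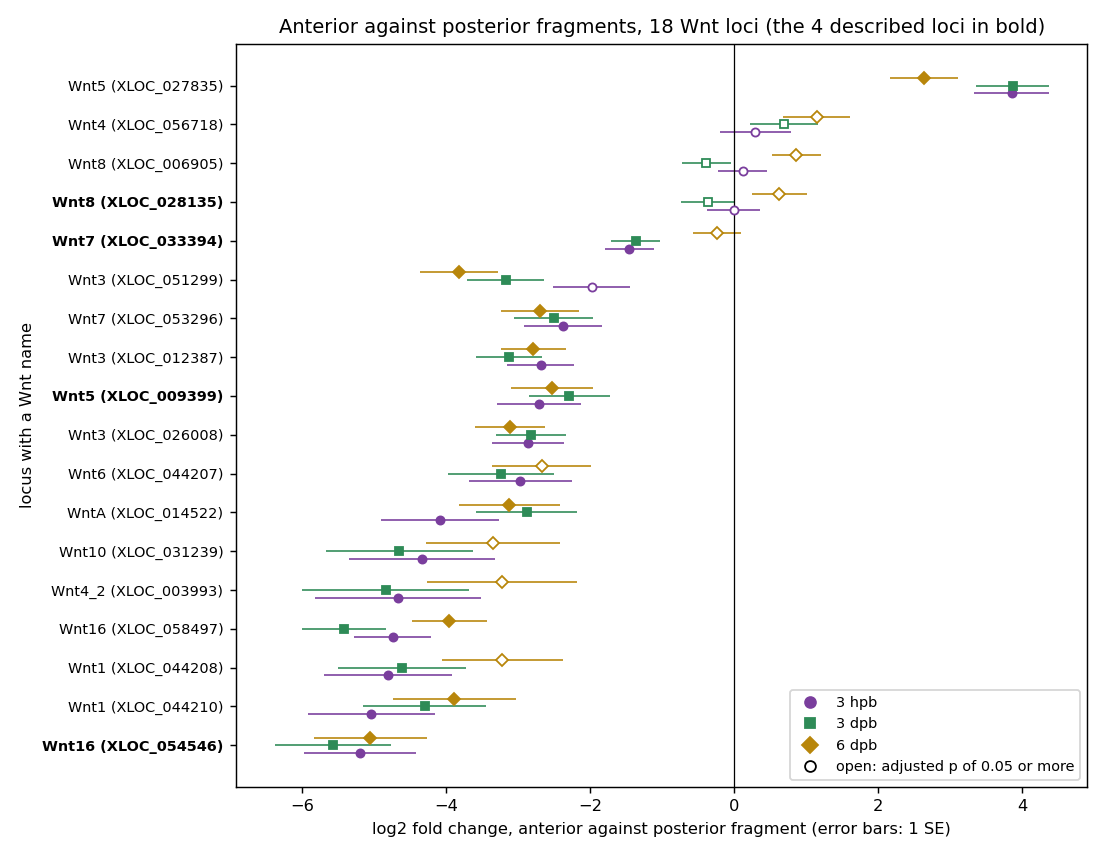
Log2 fold change of anterior against posterior fragments for all 18 loci with a Wnt name, with bars of 1 SE, ordered by the value at 3 hpb. The described loci are in bold and filled symbols have an adjusted p under 0.05. Wnt16 (XLOC_054546) is at the low end and the second Wnt5 locus (XLOC_027835) at the high end.

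The other 14 Wnt loci lay mostly on the posterior side. Both Wnt1 loci carry the same gene model on scaffold 3609, and 3 loci share the name Wnt3. The 14 loci may thus stand for fewer genes, which was not tested. Between the fragments 10 of the 14 were called lower in the anterior and 1 higher at 3 hpb, 11 lower and 1 higher at 3 dpb, then 7 lower and 1 higher at 6 dpb, where 0.884%, 0.667% and 1.6% of all tested loci were called higher and 4.41%, 2.92% and 2.73% lower. The median log2 difference of the 14 was -2.92, -3.15 and -3.12, beside a median of all loci of 0.11, 0.02 and -0.02. Wnt16 was thus near the low end of a family most of whose loci were lower in the anterior fragment. The loci not called between the fragments at any time were Wnt8, its namesake and Wnt4. Wnt1, which is transcribed at the tail end of regenerating planarians, had 81.3 and 122 CPM at the locus XLOC_044208 in posterior fragments at 3 hpb and 2.15 and 5.22 CPM in anterior fragments. Against controls 4 of the 14 were called lower in anterior fragments at 3 hpb, 3 at 3 dpb and 1 at 6 dpb, with medians of -1.94, -2.62 and -1.81, and the nested block called 10, 8 and 3. Of all tested loci 4.76%, 2.24% and 2.15% were called lower, and 14.5%, 3.61% and 3.36% under the nested block. By edgeR none of the 14 was called higher in anterior fragments, while 1, 0 and 0 were higher at an unadjusted p and none by DESeq2. Over the 3 times 2.31%, 0.0189% and 0.044% of all loci were called higher. In posterior fragments edgeR called 1 of 14 lower at 3 hpb, where 0.0409% of all loci were, and none at 3 dpb or 6 dpb, where 0% and 0.00629% were. At the latter times 4 and 3 were higher and 1 and 1 lower at an unadjusted p, and DESeq2 called 2 and 3 higher and 1 and 1 lower. Of the 31798 tested loci DESeq2 called 97 and 657 in either direction at these times. The nested block called 3 higher at 6 dpb, where 1.1% of all loci were.

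The locus that shares its name with Wnt5 was divided the other way. XLOC_027835 had 48.9 and 16.6 CPM in anterior and 3.07 and 1.30 CPM in posterior fragments at 3 hpb, and 64.8 and 18.6 against 10.4 and 2.96 CPM at 6 dpb. Its log2 difference of anterior against posterior fragments was 3.85 (adjusted p = 0.000659), 3.87 (adjusted p = 0.000644) and 2.63 (adjusted p = 0.0068) at the 3 times, where Wnt5 (XLOC_009399) had negative values in both replicates each time. Against controls it was -3.75 in posterior fragments at 3 hpb (SE 0.52, adjusted p = 0.0249). The study's probe on this locus is named wnt4, so the shared name is uncertain.

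The other namesakes were divided in the manner of their member. By the fitted values the second Wnt16 locus was less steeply divided than Wnt16, and the second Wnt7 locus more steeply than Wnt7. Whether the loci of a pair differed in this was not tested. The second Wnt16 locus, XLOC_058497, was called lower in anterior fragments against controls at all times (-2.50, -3.82 and -3.16) and against posterior fragments (-4.75, -5.42 and -3.96). The second Wnt7 locus, XLOC_053296, was called lower in the anterior against the posterior at 3 hpb (-2.38), 3 dpb (-2.51) and also 6 dpb (-2.70, SE 0.55, adjusted p = 0.0153), when Wnt7 itself was at -0.24. The second Wnt8 locus, XLOC_006905, stayed between -0.39 and 0.86 between the fragments and, like Wnt8, was called lower in posterior fragments at 6 dpb than at 3 hpb (-1.45, SE 0.34, adjusted p = 0.0323).

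**Figure D4:**
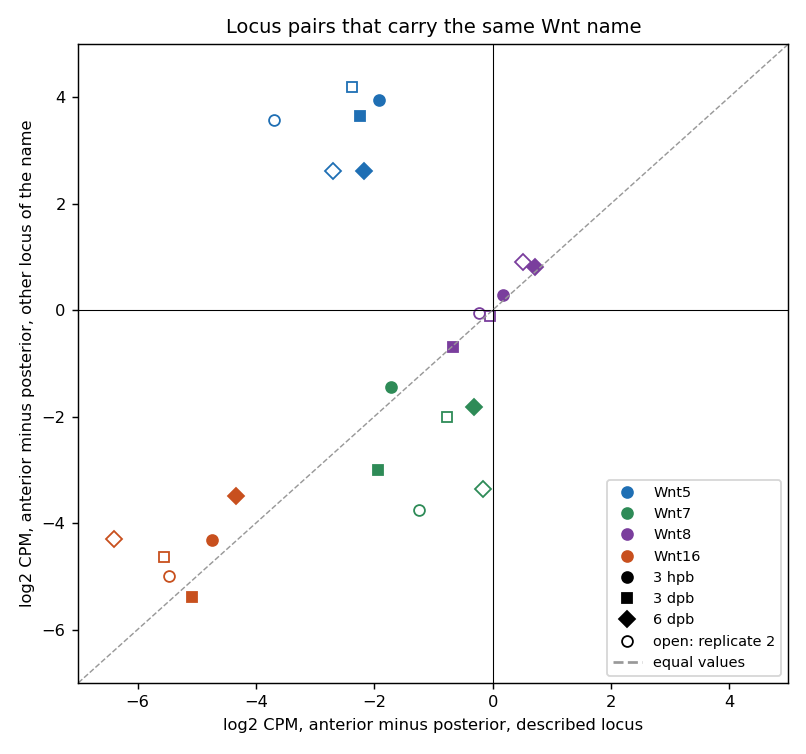
Difference in log2 CPM between anterior and posterior fragments for each member (horizontal) and for the other locus of its name (vertical), by time (shape) and replicate (filled, replicate 1; open, replicate 2). Wnt5 pairs lie at the upper left, with 2.61 to 4.20 for XLOC_027835 and -3.70 to -1.92 for XLOC_009399, and Wnt16 pairs lie at the lower left.

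Replicate 1 of anterior fragments at 6 dpb held more reads of several posterior Wnt loci than replicate 2. Wnt16 had 22 counts against 1, Wnt4_2 had 4.08 against 0.05 CPM, Wnt10 4.11 against 0.10 CPM and Wnt1 (XLOC_044208) 4.39 against 0.41 CPM. The summed level of the 14 posterior marker loci was likewise 200.1 CPM in replicate 1 and 74.5 CPM in replicate 2, and its part in the values of Wnt16 was not tested. Without replicate 1 the log2 fold change of Wnt16 against controls was -7.53 and without replicate 2 it was -3.48, both still called, but the former rests on 1 count and is no measure of its size.

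The patterns most like each member, among 14555 tested loci with a name, were measured by Pearson's r of log2 CPM over the 18 libraries, which share groups and replicates and are not independent points. Wnt16 was most like its namesake XLOC_058497 (r = 0.978), Hb9 (r = 0.971), a homeobox factor, and Wnt1 (XLOC_044208, r = 0.966). Wnt8 was most like XLOC_006905 (r = 0.937) and 2 loci named RhoA (r = 0.858 and 0.850), a small GTPase of the cytoskeleton. Wnt7 was most like Mat2a (r = 0.902), an enzyme that makes the methyl donor S-adenosylmethionine, Usp6nL (r = 0.896) and Slc5a9 (r = 0.888), a sugar transporter. Wnt5 was most like EsteraseD (r = 0.956), Xyli (r = 0.948) and APH (r = 0.947), none of them a Wnt locus. With each other the members had r of 0.787 for Wnt5 and Wnt16, 0.765 for Wnt7 and Wnt16, 0.709 for Wnt5 and Wnt7, and -0.06 to 0.19 for Wnt8 with the rest.

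Among the receptors, the Frizzled loci were divided in both directions. Frizz9/10, whose transcripts mark the posterior of the embryo, was lower in anterior fragments at 3 hpb at both of its loci (XLOC_064336 and XLOC_075788, log2 -3.03 and -1.76), and Frizz5/8 (1.26) and Frizz1/2/7 (1.01) were higher. In all, 2 of 4 Frizzled loci were called higher and 2 lower, where 2.31% of all loci were called higher and 4.76% lower. Frizz5/8 and the locus XLOC_064336 of Frizz9/10 were also called at 3 dpb (1.70 and -4.17) and 6 dpb (1.61 and -3.40). In posterior fragments Frizz5/8 was called lower at 3 hpb (-3.48). Of 6 loci for co-receptors and receptor turnover, Lrp6L_3 (XLOC_048675, 1.65) was called higher and Rspo3 (-3.18), a secreted enhancer of Wnt signals, lower in anterior fragments at 3 hpb. Neither of 2 loci of the Wnt carrier Gpr177 was called against controls by edgeR or DESeq2 in either fragment at any time, and 1 was lower at an unadjusted p, in anterior fragments at 3 hpb.

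Of 13 loci of secreted antagonists, none was called in anterior fragments at 3 hpb by edgeR or DESeq2, with 1 lower at an unadjusted p, and Dkk1, which blocks Lrp co-receptors, was called lower in posterior fragments (-1.92). Later calls of this list, looked up after their values were seen, were Sfrp3/4I (XLOC_024449), lower in anterior fragments at 3 dpb (-5.42, adjusted p = 0.00644) and 6 dpb (-5.22, adjusted p = 0.00976), and Dkk1, higher in anterior fragments at 6 dpb (1.14, adjusted p = 0.0394). Among 16 intracellular loci, 2 were called higher in anterior fragments at 3 hpb, Nkd2 (1.75) and Dsh (0.97), and 2 lower, Axin (XLOC_012203, -1.55), a part of the complex that destroys beta-catenin, and CtnnbL1 (-1.03), whose name resembles beta-catenin but which is a splicing factor. Of all loci 2.31% were called higher and 4.76% lower in that comparison. In posterior fragments edgeR called none of the 16 against controls at any time, DESeq2 called 1 lower at 3 hpb, and at an unadjusted p 2 were higher and 2 lower at 3 hpb, none at 3 dpb and 3 higher at 6 dpb. The medians of the 16 in posterior fragments were 0.30, 0.15 and 0.34. At 6 dpb 1 intracellular locus, Lef1 (1.31), was called higher in anterior fragments, likewise named after its value was seen. The median of the 4 members in anterior fragments, -1.19, -1.36 and -1.37 at the 3 times, was below those of the receptor and intracellular lists, which ran from -0.42 to 0.71, while the secreted antagonists had medians of -0.63, -1.25 and -2.41.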

How the data were processed

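The authors trimmed reads (50 bases, single end, from polyA RNA), aligned them to the v1.0 genome of P. miniata with TopHat2 2.0.12, built loci from reads with 1 position using Cufflinks 2.2.1, and counted the reads of each locus with HTSeq 0.6.1p1. They deposited 1 file of raw counts per library, a file of exon positions and a table that pairs loci with names and holds the authors' log2 fold changes, which were not used. Reads on no locus (2.37% to 3.65% per library) or on several loci (6.12% to 8.74%) were left out. Samples were grouped by fragment, time and replicate in their labels.

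Loci over 3 CPM in at least 2 libraries were fitted with edgeR 4.0.16 in R 4.3.3 (TMM factors, quasi-likelihood F tests, 9 groups plus the replicate number). Same-numbered libraries pair most closely within a time point. Differences between replicates 1 and 2 correlated between groups with r from 0.742 to 0.916 at the same time point and from 0.179 to 0.675 otherwise. The number was kept as 1 block for all times, which leaves the part of the pairing particular to a time unmodelled. The block nested in time, given beside it as an alternative, models that part. Log2 CPM of single libraries used a prior count of 2, and RPKM used the union of exons. With 2 replicates per group, precision rests on a spread shared by all groups (8 residual degrees of freedom). Named loci were the 4 members, the other Wnt loci, the 3 loci most like each member, and of each pathway list the loci called at 3 hpb, up to 4 by mean count. The procedure was tested on simulated data. Alternatives were DESeq2 1.42.0, other scalings, filters, blocks and call rules, and leaving out each library. The members and lists were chosen with earlier results of these data known. Summaries used Python 3.11.15, pandas 2.3.3, numpy 2.4.6 and matplotlib 3.10.9.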

Additional observations from a re-analysis of the deposited data

Results flagged for a closer look

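In 8 comparisons the level of a member differed between anterior and posterior fragments of the same time by a direct test. Since the fragments are different parts of the larva, this is a difference in level between them and not a measured effect of bisection. For Wnt16 this difference was -5.20 (SE 0.78), -5.58 (SE 0.81) and -5.06 (SE 0.79) in log2 at 3 hpb, 3 dpb and 6 dpb, with edgeR adjusted p-values of 0.0014, 0.00144 and 0.00251, and it was negative in both replicates each time. For Wnt5 it was -2.71, -2.29 and -2.53, and for Wnt7 -1.46 at 3 hpb and -1.37 at 3 dpb, all negative in both replicates. Groups of 2 libraries are too small to look for single libraries that stand apart.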

How the results depend on the processing

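Counts of members called moved as follows. For anterior fragments against controls, where 1 member was called at each time, the count at 3 hpb was 3 with scaling by library size alone, 0 with no filter on low counts, 0 with no replicate block, and 2 with the replicate block nested in time, with DESeq2's Wald test, with 1 fit per time point and at an unadjusted p under 0.05 with over 2-fold change. The number of all loci called in either direction moved too. At 3 hpb it was 2248 of 31798 in the main fit, 3862 with library size alone and 610 with no replicate block. It was 8560 with the nested block, 4394 with DESeq2, 3804 with 1 fit per time point and 1327 of 78950 with no filter. At 3 dpb the count of members was 2 with the nested block and with 1 fit per time point and 3 at an unadjusted p, and at 6 dpb it was 2 with the nested block, with DESeq2 and at an unadjusted p. With 1 fit per time point the count of members at 6 dpb stayed at 1, but with Wnt5 called (adjusted p = 0.0155) in place of Wnt16 (adjusted p = 0.103). All loci called at 3 dpb were 718 in the main fit, 1251 with the nested block and 1818 with 1 fit per time point. At 6 dpb they were 697 in the main fit, 1193 with the nested block, 1037 with DESeq2 and 710 with 1 fit per time point. For posterior fragments the count of 0 members at 3 hpb became 1 with the nested block, DESeq2, 1 fit per time point and an unadjusted p, and that at 3 dpb became 1 with 1 fit per time point and an unadjusted p. All loci called there at 3 hpb rose from 21 to 1363 with the nested block, 591 with DESeq2 and 209 with 1 fit per time point. At 3 dpb they rose from 0 to 294 with 1 fit per time point. Between the fragments the count of 3 members at 3 hpb was 1 with no replicate block, the count of 3 at 3 dpb was 1 with no filter, a filter of 1 CPM or no replicate block and 2 with library size alone, which lost Wnt5 (adjusted p = 0.0651), or DESeq2's size factors, which lost Wnt7 (adjusted p = 0.0569), and the count of 2 at 6 dpb was 1 with no replicate block. With no replicate block all loci called went from 1682 to 997 at 3 hpb, 1141 to 740 at 3 dpb and 1377 to 628 at 6 dpb. At 3 dpb they were 1056 with library size alone and 1137 with DESeq2's size factors. They were 1166 of 78950 there with no filter and 1229 of 46828 with a filter of 1 CPM. From 3 hpb to 6 dpb in posterior fragments the count of 1 member was 0 with library size alone, no filter and no replicate block, and 3 with the nested block, DESeq2 and an unadjusted p, at which 2 members also passed for the posterior change relative to controls. All loci called over this time were 2566 in the main fit, 6202 with library size alone and 6 with no replicate block. They were 11113 with the nested block, 5659 with DESeq2 and 1226 of 78950 with no filter. The cause of these differences was not tested.

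Directions turned for values near 0: Wnt5 in posterior fragments from 3 hpb to 6 dpb (-0.0025 with the nested block), and with library size alone the anterior change relative to controls of Wnt5 (0.19) and Wnt7 (0.29) and the posterior one of Wnt5 (0.16).

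Leaving out 1 library gave 0 to 1 members called in anterior fragments against controls at 3 hpb and at 3 dpb, 1 to 3 between fragments at 3 hpb and 3 dpb, 1 to 2 at 6 dpb, and 0 to 1 for the posterior change over time. Over the same fits some values of single members changed sign. Against controls, the anterior values of Wnt8 ran from -0.35 to 0.18 at 3 dpb and from -0.42 to 0.86 at 6 dpb. The posterior values ran from -0.19 to 0.55 for Wnt7 at 3 dpb and, at 6 dpb, from -0.046 to 1.35 for Wnt5, from -1.05 to 0.23 for Wnt8 and from -0.26 to 1.62 for Wnt16. Between the fragments Wnt8 ran from -0.25 to 0.21 at 3 hpb. From 3 hpb to 6 dpb the values ran in controls from -0.045 to 0.98 for Wnt5, from -0.99 to 0.29 for Wnt8 and from -0.82 to 1.07 for Wnt16, in anterior fragments from -0.28 to 1.08 for Wnt5 and from -0.14 to 0.55 for Wnt7, and in posterior fragments from -0.67 to 0.65 for Wnt5. Relative to controls the anterior change ran from -0.77 to 0.59 for Wnt5, from -0.46 to 0.23 for Wnt7 and from -1.10 to 0.18 for Wnt8, and the posterior change from -1.22 to 0.17 for Wnt5.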

Other observations

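Wnt3 is a ligand known from the head organizer of hydra and the posterior end of vertebrate embryos. The 3 loci of this name were above the uncut sibling of the same replicate number in posterior fragments at every time. They stood at 140% to 414% of it at 3 hpb, 257% to 450% at 3 dpb and 484% to 608% at 6 dpb. XLOC_012387 had 9.18 and 4.24 CPM in uncut controls at 6 dpb and 47.0 and 20.5 CPM in posterior fragments, and XLOC_026008 had 5.20 and 7.47 against 28.3 and 44.7 CPM. The log2 fold changes of the 3 loci at 6 dpb were 2.32, 2.54 and 2.59, with edgeR adjusted p-values of 0.140, 0.139 and 0.148. Under the replicate block nested in time these were 0.0125, 0.0093 and 0.00807, where 1.1% of all loci were called higher. Neither Wnt16 (0.48) nor Wnt7 (-0.72) had a like value at that time. Of the other Wnt loci, Wnt10 was at 354% and 242% of its uncut sibling in posterior fragments at 6 dpb. Below theirs were Wnt4 (70.5% and 37.8%) and XLOC_027835 (25.9% and 23.5%).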
